A study of Danio rerio with 7 samples.

Results

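The 4 adult female zebrafish labelled female 4, female 7, female 8 and female 9 were each compared with a common reference on a 2-colour oligonucleotide array. They are the 4 arrays labelled female among the 7 arrays of the series, and the 3 arrays labelled male were not used. Each female was a whole-animal homogenate of a hybrid strain given as AB x unknown, a cross of a laboratory line with fish of unstated origin, and was labelled with Cy5. The reference was also a homogenate of whole adults of that hybrid strain and was labelled with Cy3 on every array. The sex, number and relation of the animals in the reference, and the ages of the fish beyond adult, are unstated in the labels. The series design has the fish as full siblings, used to relate expression to copy number variants. No array had the opposite dye orientation, and every ratio therefore holds any dye effect. Each female is a separate animal on a single array.

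The value reported is the log2 ratio of the female (Cy5) over the reference (Cy3), centred on the median of each array, so that 0 is the ratio of the typical retained probe. A probe was retained when the scanner marked its female signal, Cy5, as well above background on all 4 arrays, which held for 12848 of 43603 probes. These include 8209 probes with a gene name, standing for 6333 of 11484 named genes on the array. A gene was called above or below the reference when the mean ratio differed from 0 by limma at an adjusted p under 0.05 and all 4 females lay on the same side. The filter looks at the females alone, so genes that were dim in the females are missing from the called genes, and 4149 probes seen in the reference on all 4 arrays were left out for this reason. Where few members of a list were retained, the shares called above and below are partly set by this filter. The reference is no second group of samples, and whether the same extract served both scan sessions is not given in the sources used here, so any change in the reference between sessions is part of the spread that was tested.

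RNA of a whole fish sums over its organs. The ovary of an adult female holds large oocytes that store maternal mRNA and egg coat transcripts, whereas the liver makes yolk precursors and plasma proteins, and muscle makes up most of the body. A ratio against a reference made from whole fish therefore reads both what each cell transcribes and how much of each organ the animal has. In bulk RNA of this kind, fewer cells of a type and less RNA per cell cannot be told apart.

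The 4 arrays were not equal in quality. Females 7 and 9 were scanned in 1 session and females 4 and 8 in another, by the scanner headers. Cy5 was well above background at 65.2% and 59.5% of probes in females 7 and 9, and at 33.6% and 33.7% in females 4 and 8. The log2 ratios of the retained probes had an SD of 0.952 and 0.939 in females 7 and 9, and of 1.31 and 1.3 in females 4 and 8. Repeat spots of a probe differed with an SD of 0.06 and 0.08 in females 7 and 9, and of 0.27 and 0.18 in females 4 and 8. The reference channel ranked the retained probes almost alike within a session (Spearman correlation 0.999 between females 7 and 9 and 0.997 between females 4 and 8) and less so between sessions (0.896 to 0.901). The headers give the same slide and position for females 4 and 7, although their sessions differ. Their ratios correlated at 0.717 across probes, against 0.739 for females 4 and 9, which share neither session nor position. Female 8 was less like the females of the other session, at 0.505 with female 7 and 0.558 with female 9. Within a session the values were 0.873 for females 7 and 9 and 0.730 for females 4 and 8. The headers also place female 9 at a position shared with an array labelled male, and female 8 at another.

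The labels were checked against marker genes of the organs. All 6 oocyte markers on the array were retained (zp2.1, zp3b, zp3a.1, gdf9, bmp15 and zar1), with a summed Cy5 intensity of 169781 to 446915 over the 4 females. Of 6 testis markers, only cyp17a1 was retained, which steroid-making cells of both gonads express, at 3508 to 6258, and insl3 was seen on no array. The retained markers were 5 of 5 for liver, 3 of 4 for muscle, 3 of 3 for intestine and pancreas, 3 of 3 for skin, 1 of 3 for brain and 1 of 3 for eye, and neither the single marker on the array for erythrocytes nor elavl3 of neurons was retained.

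Over all retained probes, 2190 (17.0%) were called above the reference and 1815 (14.1%) below it. By gene, 847 of 6333 (13.4%) were called above and 1085 (17.1%) below. With no test, 1482 genes (23.4%) lay above 0 in all 4 females and 2215 (35.0%) lay below. Of all retained probes, 780 (6.07%) were at least 2-fold above the reference in all 4 females and 204 (1.59%) at least 2-fold below. By gene, 261 genes (4.12%) lay as far above and 110 (1.74%) as far below. The filter on the female signal removes probes with large drops in the females beforehand, so this lean is partly built in. With the filter on the reference signal instead, 698 probes lay as far above and 569 as far below. With no filter these counts were 1092 and 1058. Among the 2570 dimmest retained probes the median ratio was 0.52, with 794 called above and 253 below, while the 4 brighter classes of like size had medians between -0.13 and 0.02. The counts by gene changed with the female left out. They were 303 above and 174 below without female 4, 428 and 374 without female 7, and 358 and 309 without female 9. Without female 8 they were 913 and 709, so that the count above rose and the count below fell. With the scan session as a random block they were 476 above and 475 below. Within females 7 and 9 alone 1188 genes were called above and 1021 below. Within females 4 and 8 alone limma called 0 probes, although 4758 had an unadjusted p under 0.05. With normexp and loess 936 genes were called above and 1122 below. List counts under these settings, given in later paragraphs, are to be read against these counts over all 6333 genes.

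**Figure D1:**
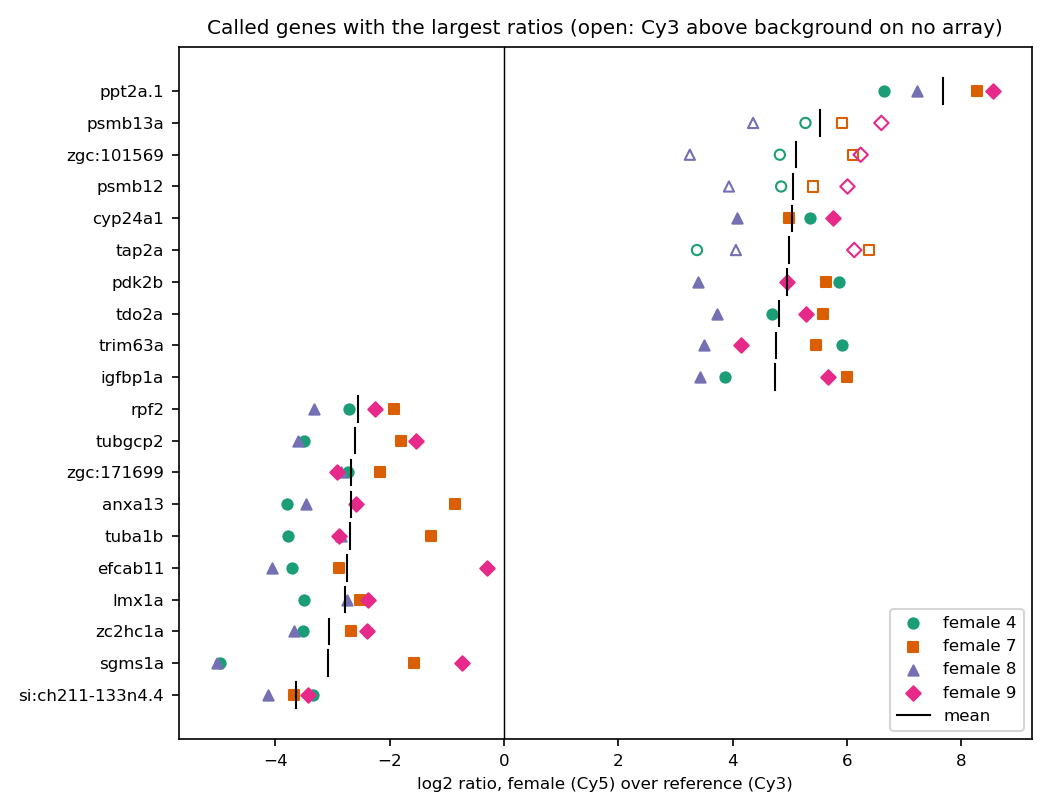
The log2 ratio of each female over the reference for the 10 called genes furthest above and the 10 furthest below the reference. Each symbol is a female, the black tick is the mean, and open symbols mark genes whose reference signal was well above background on no array. The gene ppt2a.1 stands apart at the top, with all 4 females between 6.64 and 8.56.

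The highest gene was ppt2a.1, which encodes a palmitoyl-protein thioesterase, a lysosomal enzyme that removes fatty acids. Its Cy5 intensity was 18243, 31279, 27432 and 24353 in females 4, 7, 8 and 9, against a Cy3 intensity of 184, 106, 181 and 67.7 in the reference on the same arrays. The log2 ratio was 6.64, 8.27, 7.22 and 8.56, with a mean of 7.67 ± 0.90 (SD, n = 4, adjusted p = 0.00127 by limma). All 4 females were bright at a gene that was dim, though above background, in the reference on every array. When the raw signals were instead corrected by normexp with an offset of 50 and normalized by loess, the mean of ppt2a.1 was 5.33. That offset adds to both channels and pulls the ratios of dim probes towards 0. Of the 73 genes named by rule, 73 had the same sign and 70 a smaller ratio under this setting. Bright genes were among them, such as zp2.5, which went from -1.02 to -0.39. The parts of the raw signal, the offset and loess in this were not separated.

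The next genes include 3 that belong to antigen presentation. The genes psmb13a and psmb12 encode catalytic beta subunits of the proteasome, which cuts proteins into peptides, and tap2a encodes part of the transporter that moves such peptides into the endoplasmic reticulum for loading on MHC class I molecules. Cy5 intensity of psmb13a was 614, 725, 361 and 983 in females 4, 7, 8 and 9, against 15.9, 12.6, 17.3 and 10.6 for Cy3 in the reference. For psmb12 it was 464, 483, 265 and 580 in the females, against 16.2, 11.9, 17.0 and 9.44 in the reference. For tap2a it was 160, 993, 268 and 1176 in the females, against 15.5, 12.4, 15.8 and 17.6 in the reference. All 3 were seen in every female and in the reference on no array, so that only a bound on the fold can be given. After each channel was put on a common scale, the females were at least 15.5-fold above the reference for psmb13a (adjusted p = 0.00203), at least 11.2-fold for psmb12 (adjusted p = 0.00208) and at least 11.7-fold for tap2a (adjusted p = 0.00523). These bounds set the mean over the females against the lowest signal that counted as well above background in the reference. The adjusted p beside each bound, here and below, is that of the limma fit to the measured ratio and does not test the bound. That ratio divides by a reference signal not well above background. The filter retained such genes by their Cy5 signal alone, so this p is no support for the fold. With normexp and loess the mean log2 ratios were 1.57 for psmb13a, 1.21 for psmb12 and 1.3 for tap2a, well under these bounds, and tap2a no longer passed (adjusted p = 0.0536).

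The 3 genes are neighbours in the genome, in the core MHC region. The 10 protein-coding genes on each side of tap2a were therefore examined, a choice made after the values were seen and described with no test. Of these 21 genes, 16 had a probe and 9 were retained, of which 4 were called above the reference (psmb13a, psmb12, tap2a and sdha) and 0 below. In 5 genes Cy5 was seen on some arrays and Cy3 on none: psmb13a, psmb12 and tap2a on all 4 arrays, and psmb9a and col11a2 on 2 arrays each. Probes for mhc1uba and psmb8a, which both lie beyond psmb13a on the side away from tap2a, were seen in neither channel. At brd2a, a bromodomain gene next to tap2a that was seen in both channels, the females lay on both sides of 0, with ratios of -0.54, 0.21, 1.15 and -1.01 in females 4, 7, 8 and 9 and a mean of -0.05 (adjusted p = 0.927). On the same side sdha, a succinate dehydrogenase subunit, averaged 0.77 (adjusted p = 0.0466). The gene daxx on the far side averaged 0.86 (adjusted p = 0.128). As background, zebrafish haplotypes of the core MHC carry different sets of proteasome and transporter genes. Whether sequence or copy number under the probes differed between the females and the reference was not tested.

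**Figure D2:**
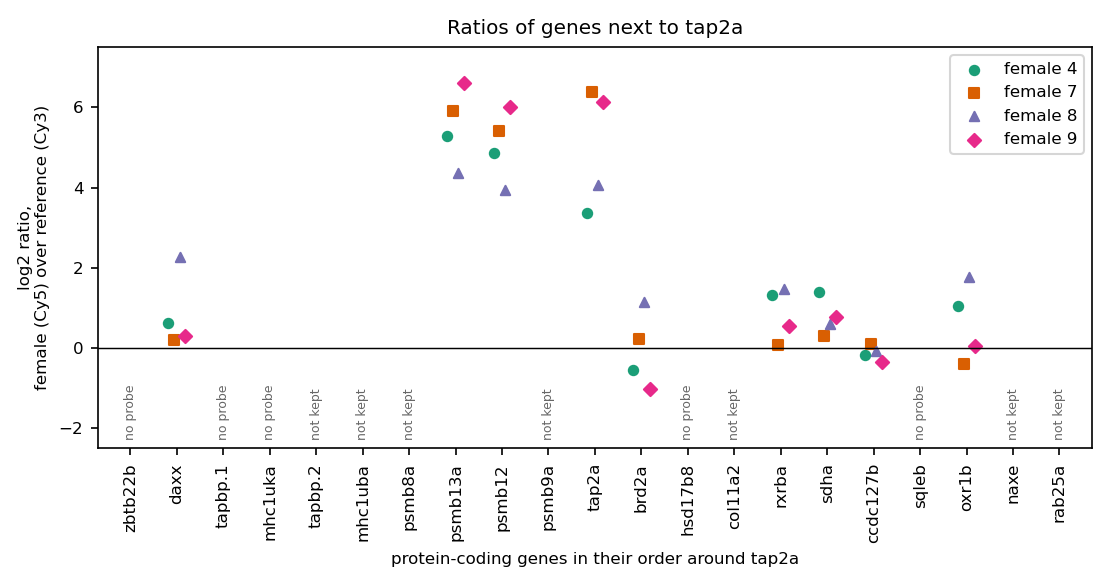
The log2 ratio of each female over the reference for the protein-coding genes in their order around tap2a, with 1 symbol per female. Genes marked as having no probe or as not kept have no value. The genes psmb13a, psmb12 and tap2a, whose reference signal was not above background, are drawn at their measured ratios of 3.38 to 6.60, while brd2a, next to tap2a, lies on both sides of 0.

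In all, 32 probes were seen in every female and in the reference on no array, and 14 of them stood for named genes. The largest bound was that of trim35-29, a member of the tripartite motif family, at least 45.8-fold above the reference (adjusted p = 0.0013), whereas a second probe of the gene, seen in both channels, had a mean log2 ratio of 1.15 and was also called. After psmb13a came zgc:101569 at least 15.3-fold above (adjusted p = 0.00446) and nfil3-6, of the family of bZIP repressors that act in the clock, at least 12.9-fold above (adjusted p = 0.00937). A second retained probe of nfil3-6 was likewise seen in every female and in the reference on no array. With normexp and loess the mean was 1.23 for zgc:101569 and 1.29 for nfil3-6, and without female 4 nfil3-6 did not pass.

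Genes of metabolism, hormone signalling and muscle were also among the highest. The kinase gene pdk2b, whose product shuts pyruvate out of the mitochondrial oxidation of sugar, had log2 ratios of 5.85, 5.64, 3.39 and 4.95 in females 4, 7, 8 and 9 (mean 4.96 ± 1.12, SD, n = 4, adjusted p = 0.0031). The insulin-like growth factor binding protein gene igfbp1a had 3.87, 6.0, 3.42 and 5.67 (mean 4.74 ± 1.28, adjusted p = 0.00446). The glucocorticoid receptor co-chaperone gene fkbp5 had 5.27, 4.34, 3.28 and 4.09 (mean 4.25 ± 0.82, adjusted p = 0.00258). Female 8 was the lowest of the 4 at each of these genes, and still well above the reference. The muscle ubiquitin ligase genes of wasting muscle, trim63a and trim63b, averaged 4.76 and 3.78 (adjusted p = 0.00349 and 0.00572). At trim63b the ratios were 4.61, 4.27, 2.05 and 4.18, so that female 8 lay apart from the others. The tryptophan-degrading enzyme gene tdo2a had 4.69, 5.57, 3.73 and 5.28 (mean 4.82 ± 0.82, adjusted p = 0.00205), and the vitamin D hydroxylase gene cyp24a1 had 5.35, 4.98, 4.07 and 5.76 (mean 5.04 ± 0.72, adjusted p = 0.00137). With normexp and loess the means were lower and still passed, at 3.21 for pdk2b, 3.35 for igfbp1a, 3.02 for trim63a, 2.21 for trim63b, 3.27 for tdo2a and 2.76 for cyp24a1.

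In the list of stress and immediate early genes, 39 of 65 members on the array were retained. Of these, 20 were called above the reference (51.3%, against 13.4% of all genes) and 2 below (5.13%, against 17.1%). The list's median was 1.00, against -0.11 over all retained genes. Besides pdk2b, igfbp1a and fkbp5, the called members included the stress sensor gadd45ba (3.42), the cytokine signalling inhibitor socs3a (2.71), the endoplasmic reticulum stress factor ddit3 (2.59), the antiproliferative btg1 (2.44), the orphan receptor nr4a1 (2.13) and the glucocorticoid-induced tsc22d3 (1.89). For nr4a1 the females were close together, at 2.09, 2.26, 1.85 and 2.32. The 2 members below were hspa5, the chaperone of the endoplasmic reticulum (-0.76), and ddit4, a brake on growth signalling (-2.52). At ddit4 the ratio was -4.36, -1.02, -3.70 and -1.0, so that the females of the 2 sessions did not overlap. The count above was 8 without female 4, 10 without female 7, 24 without female 8 and 9 without female 9, and 11 with the session as a block.

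Clock genes were called on both sides, at shares not far from those of all genes. Of 16 retained members, 3 were called above (18.8%, against 13.4% of all genes): nfil3-6, the repressor nr1d2a and per1a. Below were 2 (12.5%, against 17.1% of all genes), nfil3 and cry1b. The list median was 0.03, and with 1 female left out 1 or 2 were above and 0 or 1 below. The ratio of nr1d2a was 1.25, 2.92, 2.25 and 3.17 in females 4, 7, 8 and 9 (mean 2.4, adjusted p = 0.00901), and that of cry1b, a light-input and repressor gene of the clock, was -1.41, -0.71, -1.46 and -0.68 (mean -1.07, adjusted p = 0.0197). The hour at which the fish were taken is not given in the sources used here.

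**Figure D3:**
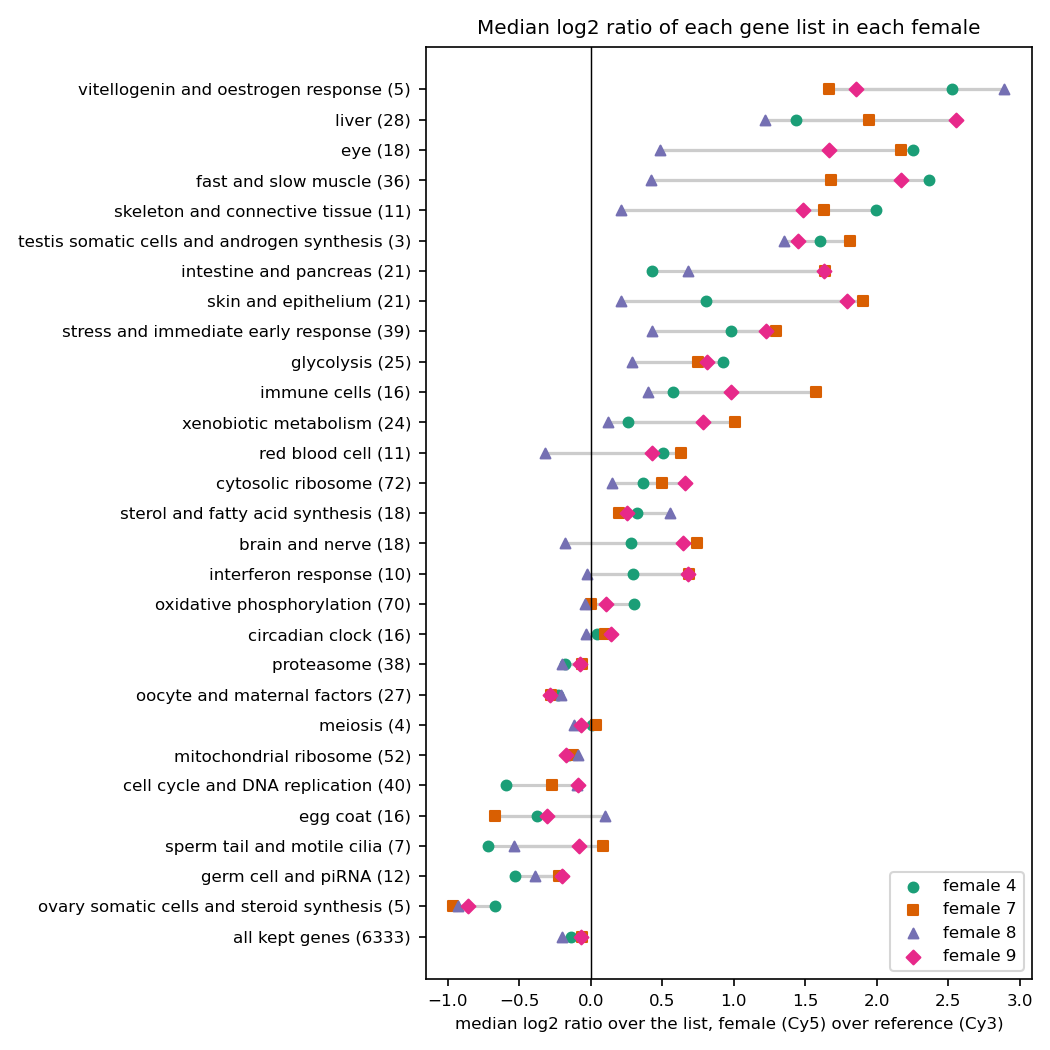
The median log2 ratio of each gene list in each female, with the number of retained members in brackets. Symbols are females and the grey line spans them. Lists for yolk, liver, eye and muscle lie highest, and in most organ lists female 8 is the lowest.

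Yolk and the liver stood above the reference in every female. Vitellogenins are yolk precursors that the liver makes under oestrogen and the oocyte takes up. The gene vtg5 had log2 ratios of 2.53, 1.98, 3.05 and 2.58 in females 4, 7, 8 and 9 (mean 2.54 ± 0.44, SD, n = 4, adjusted p = 0.00309). The gene vtg4 had 2.53, 1.66, 3.52 and 1.85 (mean 2.39 ± 0.84, adjusted p = 0.00862) and vtg2 had 1.56, 0.57, 2.89 and 1.38 (mean 1.6 ± 0.96, adjusted p = 0.0279). Female 8, lowest in most organ lists, was the highest at all 3 vitellogenins. The oestrogen receptor gene esr2b averaged 2.91 (adjusted p = 0.00903), highest in female 4 at 4.34. The fifth retained member, the brain aromatase gene cyp19a1b, averaged 0.58 and did not pass (adjusted p = 0.0932). Of 8 members of this list on the array 5 were retained. Of those, 4 were called above (80.0%, against 13.4% of all genes) and 0 below (against 17.1%).

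Of 43 liver genes on the array 28 were retained, with a median of 1.84. Of those, 21 were called above (75.0%, against 13.4% of all genes) and 1 below (3.57%, against 17.1%). The transaminase gene agxtb, which detoxifies glyoxylate, had ratios of 4.32, 4.51, 4.21 and 4.22 (mean 4.32 ± 0.14, adjusted p = 0.00102), among the most even of the large ratios. Other members called above were the fibrinogen chains fgb (3.02) and fgg (2.13), prothrombin f2 (2.45), the retinol carrier rbp4 (2.42), apolipoprotein genes apoa2 (2.39) and apoa1a (1.44), complement c3a.2 (2.37) and ceruloplasmin cp (2.34). The one below was cbsb (-1.3), a cystathionine synthase gene. The list's medians were 1.43, 1.94, 1.22 and 2.55 in females 4, 7, 8 and 9. The count above was 14 without female 4, 13 without female 7, 23 without female 8 and 12 without female 9.

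Digestive genes lay mostly above the reference. Of 39 members 21 were retained, with a median of 1.24. Called above were 11 (52.4%, against 13.4% of all genes), and 2 were below (9.52%, under the 17.1% of all genes). Those above were led by the chitinase chia.2 (2.76, 4.01, 3.49 and 2.56 in females 4, 7, 8 and 9) and the lipid carriers fabp6 (mean 3.16), fabp1b.1 (2.90) and fabp2 (2.87) of the gut lining. The brush border gene vil1 averaged 2.3. At fabp6 female 7 alone reached 4.97, and the mean without it was 2.55. Of pancreatic enzymes, carboxypeptidase cpb1 (1.77), lipase cel.1 (1.31) and elastase cela1.5 (1.11) were above, while amylase amy2a (-1.82) and elastase cela1.6 (-1.32) were below. The ratios of amy2a were -2.84, -1.46, -2.58 and -0.40. The count above was 10 without female 4, 7 without female 7, 10 without female 8 and 7 without female 9.

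Skeletal muscle genes lay mostly above the reference, by their median least so in female 8. Of 48 muscle genes on the array 36 were retained, with a median of 1.75. Of those, 22 were called above (61.1%, against 13.4% of all genes) and 1 below (2.78%, against 17.1%). Medians were 2.36, 1.68, 0.42 and 2.17 in females 4, 7, 8 and 9. The sarcoplasmic calcium pump gene atp2a1l averaged 3.43, the myosin light chain mylz3 2.69, the actin actc1b 2.69 and the creatine kinases ckmb and ckma 2.51 and 2.25. At ckma the ratios were 3.07, 2.41, 0.84 and 2.68, and at actc1b they were 3.66, 2.45, 1.41 and 3.22, with female 8 lowest at both. At ckmb, in contrast, female 8 had 3.24 and female 7 was lowest with 1.4. The member called below was mylpfb (-1.29), a fast myosin light chain. The count above was 7 without female 4, 14 without female 7, 27 without female 8 and 8 without female 9. The other 13 retained members were not called, among them the 3 retained muscle markers. Of these markers mylpfa averaged 0.14 (adjusted p = 0.887), pvalb2 0.46 (adjusted p = 0.587) and pvalb1 1.09 (adjusted p = 0.0505). In female 8 their ratios were -1.97, -1.72 and -0.11. Summed Cy5 of the 3 markers ranged from 47348 to 531351 over the 4 females.

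Eye genes also lay mostly above the reference. Of 67 members on the array 18 were retained, against 6333 of 11484 named genes in all, with a median of 1.77. Retention needed a bright female signal, so the shares called above and below are partly built in. Of those, 12 were called above (66.7%, against 13.4% of all genes) and 0 below (against 17.1%). The female medians were 2.25, 2.17, 0.48 and 1.66 in females 4, 7, 8 and 9. Among photoreceptor genes the cone transducin gnat2 averaged 2.56 (adjusted p = 0.0053), the disc protein rom1a 2.49 and recoverin rcvrn2 2.45. The gene pde6ga, a subunit of the phosphodiesterase of phototransduction, averaged 2.94 (adjusted p = 0.00594), but its reference signal was well above background on 1 array and its mean was 0.67 with normexp and loess, against 1.61 for gnat2. For rcvrn2 the females were 2.6, 1.84, 2.66 and 2.70. The blue cone opsin opn1sw2 had 3.06, 2.67, 1.14 and 1.63. Of the lens crystallins, crygn2 (1.63) and crygmx (0.96) were lower, and still called above. The crystallins cryba4 (0.22), crygm6 (0.78), crygs1 (1.08) and crygs4 (0.69) were not called, each with female 8 below 0. The count above was 4 without female 4, 8 without female 7, 15 without female 8 and 6 without female 9.

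In the list of skin and epithelium, 21 of 34 members were retained, with a median of 1.23. Of these, 9 were called above (42.9%, against 13.4% of all genes) and 1 below (4.76%, against 17.1%). The keratin gene krt4 was even, with 3.01, 2.77, 2.97 and 3.32 (mean 3.02 ± 0.23, adjusted p = 0.00132). The keratins krt18a.1 (2.49, its reference signal well above background on only 2 arrays) and krt92 (2.37) followed. The regulator of basal epidermis, tp63, was below (-1.02). In skeleton and connective tissue 11 of 28 members were retained, with a median of 1.56. Of these, 6 were called above (54.5%, against 13.4% of all genes) and 0 below (against 17.1%). Those above included the collagen chains col1a1a (2.70) and col1a2 (1.80), the matrix inhibitor of calcification mgp (2.69) and osteocalcin bglap (1.78). A second probe of col1a1a had a mean of 0.64 and did not pass. Counts above with 1 female left out ran from 8 to 12 for skin and from 4 to 10 for connective tissue, highest in both without female 8.

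Nerve and blood genes were called on both sides. Of 48 brain and nerve genes on the array 18 were retained, with a median of 0.29. Called above were 6 (33.3%, against 13.4% of all genes), and 2 were below (11.1%, under the 17.1% of all genes). The bHLH factor neurod1 was even at 3.21, 2.95, 3.12 and 3.08 (mean 3.09 ± 0.11, adjusted p = 0.00127), with 0.95 under normexp and loess. Its reference signal was well above background on only 2 arrays. The synaptic genes snap25a (1.88) and snap25b (1.72) were also above. The microtubule regulator stmn4 (-1.88, adjusted p = 0.00632) and the G protein gene gnao1b (-1.38) were below. Among 11 retained red blood cell genes, 3 were called above (27.3%, against 13.4% of all genes). The 2 called below (18.2%) were near the 17.1% of all genes, and 0 were below with any 1 female left out. The globin hbaa2 had 1.74, 3.28, 1.09 and 3.89 and the globin hbba2 had 2.27, 0.56, 3.30 and 1.13 in females 4, 7, 8 and 9. At hbba2 the reference channel itself moved with the session, at 416, 25972, 700 and 18967 on these arrays. The female channel of hbba2 was 1992, 36669, 7007 and 39600.5, and that of hbaa2 was 457, 1572, 279 and 1879. Females 7 and 9 were thus brightest at both globins, although the ratios rank the females otherwise at hbba2. These intensities are not scaled between arrays, and the arrays of females 4 and 8 were dimmer in Cy5 in general. They therefore do not compare globin RNA between the fish. Brain and nerve genes above numbered 1 without female 4, 2 without female 7, 7 without female 8 and 2 without female 9, and red blood cell genes above 0, 1, 4 and 0 in the same order.

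Immune cell genes had 16 of 40 members retained, with a median of 0.76. Called above were 7 (43.8%, against 13.4% of all genes), and 1 was below (6.25%, against 17.1%). Immune members above numbered 3 without female 4, 2 without female 7, 8 without female 8 and 2 without female 9, and 3 with the session as a block. The chemokine receptor cxcr4b was even, with 3.34, 2.93, 2.78 and 3.04 (mean 3.02 ± 0.24, adjusted p = 0.00132). The MHC class I light chain b2m had 1.83, 2.57, 1.15 and 2.01 (mean 1.89, adjusted p = 0.00797), and the class I gene mhc1zba 0.91. In the interferon list 10 of 25 members were retained. Of these, 4 were called above (against 13.4% of all genes) and 2 below (against 17.1%). With 1 female left out the counts were 3 to 5 and 0 to 2. Those above were psmb13a and tap2a, described with the MHC region, the antiviral mxg (mean 2.57) and irf1b (1.41). Those below were irf1a (-0.92) and the inhibitor socs1a (-1.02), so the list did not lie to one side outside the MHC genes. The reference signal of psmb13a and tap2a was well above background on no array, and both were retained by their Cy5 signal alone. With either filter that required Cy3 on all 4 arrays, more members of the list were called below than above.

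Egg coat genes had members called below the reference and none above. They encode zona pellucida proteins that the oocyte lays down around itself. Of 16 retained members of 17 on the array, 0 were called above and 6 below (37.5%, against 17.1% of all genes), with a median of -0.33. The list median was -0.37, -0.67, 0.10 and -0.30 in females 4, 7, 8 and 9, so that female 8 lay on the other side. The gene zp2.5 had -1.29, -1.29, -1.04 and -0.43 (mean -1.02 ± 0.41, adjusted p = 0.0209), and it was saturated on 1 array in Cy5 and on 2 arrays in Cy3. The gene zp2.2 averaged -1.01 (adjusted p = 0.0191), while its other probe averaged -0.09 and did not pass. The count below was 0 without female 4, 0 without female 7, 4 without female 8 and 2 without female 9. With loess normalization of the raw signals 1 member was above and 0 below, and zp2.5 averaged -0.39 (adjusted p = 0.265). The list's median stayed below 0 under each setting run, between -0.58 and -0.04.

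Oocyte and maternal factors had 27 of 31 members retained, with a median of -0.15, close to the -0.11 of all genes. Of these, 0 were called above (against 13.4% of all genes) and 8 below (29.6%, against 17.1%). Over the settings run the list's median lay between -0.44 and 0.07, on both sides of 0. The pluripotency factor nanog, stored in the egg, had -2.68, -0.51, -2.47 and -0.53 (mean -1.55 ± 1.19, adjusted p = 0.0479). The females of the 2 sessions did not overlap there, and nanog did not pass when any of the 4 was left out. The claudin cldng averaged -1.13 and its other probe 0.04. The cyclin ccnb1, which drives oocyte maturation and mitosis, averaged -1.02 (adjusted p = 0.0161), and the kinase gene wee2 -0.70. Of the germ cell genes nanos3 (-1.22) and dnd1 (-0.71), both RNA regulators of germ cell fate, were below, 2 of 12 retained (16.7%, near the 17.1% of all genes), and 0 or 1 were below with 1 female left out. The count of oocyte factors below was 0 without female 4, 0 without female 7, 4 without female 8 and 2 without female 9. Cell cycle genes had 40 of 44 retained. Called above was 1 (2.5%, against 13.4% of all genes), the mitotic kinesin kif11 (0.77). Below were 6 (15.0%, under the 17.1% of all genes), among them birc5b (-0.99) and aurka (-0.79). The cell cycle count below was 0 without female 4, 1 without female 7, 2 without female 8 and 1 without female 9.

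Somatic and steroid genes of the ovary were few. Of 5 retained members of 18 on the array 0 were called above and 3 below (60.0%, against 17.1% of all genes). Those below were cyp17a1 (-1.62), cyp11a1.1 (-1.32) and rspo1 (-0.75). The other 2 did not pass: the steroid dehydrogenase hsd3b2 averaged -0.74 (adjusted p = 0.0575), and the follistatin gene fstb averaged 1.17 with all 4 females above 0 (adjusted p = 0.0622). With 1 female left out 0 to 2 were below. The enzymes of cyp11a1.1 and cyp17a1 make the first steps from cholesterol to sex steroids. At cyp17a1 the ratios were -2.54, -0.96, -2.6 and -0.36, and its 3 other probes averaged -1.10, 0.14 and 0.36 and did not pass. The other probe of cyp11a1.1 averaged -0.35 and did not pass (adjusted p = 0.255). In the list for testis somatic cells and androgen synthesis, 3 of 12 members were retained. The filter on the female signal left few members, so the shares called are partly built in. Called above were 2 (66.7%, against 13.4% of all genes), the androgen receptor ar (mean 1.51, adjusted p = 0.00476) and hsd11b2 (mean 2.72, adjusted p = 0.00965). Both are expressed well beyond the testis, and hsd11b2 also inactivates cortisol. The ratios of ar were even, at 1.6, 1.65, 1.35 and 1.45. Among 4 retained meiosis genes the synaptonemal complex gene sycp1 was above (mean 3.25, adjusted p = 0.00333, its reference signal seen on 2 arrays) and the cohesin rad21l1 below (-0.80). Each is 25.0% of this short list, against 13.4% of all genes above and 17.1% below. Of 7 retained genes of sperm tail and motile cilia, 2 were above (cimap1b and spata18) and 2 below (ift172 and ift88). Either count is 28.6% of the list, against 13.4% of all genes above and 17.1% below. The gene cimap1b was seen in the reference on no array and stood at least 4.16-fold above it (adjusted p = 0.00632), but averaged 0.40 with normexp and loess (adjusted p = 0.1).

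Of the housekeeping complexes, only the cytosolic ribosome had a larger share called above than all genes with all 4 females used. It had 72 of 75 members retained, with a median of 0.36 against -0.11 over all retained genes. Called above were 22 (30.6%, against 13.4% of all genes), and 1 was below (1.39%, against 17.1%), rpl19. The largest were rps28 (2.98, 1.06, 3.22 and 0.95) and rplp1 (2.64, 0.62, 2.97 and 0.69), and at both the females of the 2 sessions did not overlap. The count above was 1 without female 4, 9 without female 7, 24 without female 8 and 6 without female 9, and it was 50 with loess normalization. Over all 6333 genes the same counts were 303, 428, 913, 358 and 936. Without female 4 the ribosome thus had a smaller share called above than all genes. Mitochondrial ribosomal genes had 2 of 52 called above (3.85%) and 3 below (5.77%), both under the shares of all genes. Of 70 retained genes of oxidative phosphorylation 8 were above (11.4%, under the 13.4% of all genes) and 2 below (2.86%, against 17.1%). Those above numbered 1 without female 4, 2 without female 7, 6 without female 8 and 0 without female 9, and 3 with the session as a block. The cytochrome oxidase subunits cox6a2 (2.12) and cox7a1 (1.87), both muscle forms, were among those above. Of 38 retained proteasome genes 2 were above (5.26%), psmb12 and psmb13a, which were seen in the reference on no array. The 2 below (5.26%) were psmd8 (-0.75) and psma6b (-0.94). Both shares lie under those of all genes.

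Of the metabolic lists, glycolysis had the most members called above. Of 25 retained glycolysis genes 9 were called above (36.0%, against 13.4% of all genes) and 0 below (against 17.1%), with a median of 0.80. Those above included the isomerase gpib (4.37, 2.21, 4.35 and 2.09 in females 4, 7, 8 and 9, with a mean of 1.24 under normexp and loess), the muscle aldolase aldoab (1.70) and the lactate dehydrogenase ldha (1.45). The glycolysis count above was 2 without female 4, 3 without female 7, 13 without female 8 and 2 without female 9, and 4 with the session as a block. In sterol and fatty acid synthesis 4 of 18 were above (22.2%, against 13.4% of all genes) and 3 below (16.7%, near the 17.1% of all genes). The fatty acid elongase elovl5 had 2.56, 1.48, 4.14 and 1.16 (adjusted p = 0.023), with a mean of 1.73 without female 8, while idi1 (-1.62), nsdhl (-1.01) and ebp (-0.88) of cholesterol synthesis were below. The list for xenobiotic metabolism had 7 of 24 above (29.2%, against 13.4% of all genes) and 1 below (4.17%, against 17.1%). With 1 female left out 3 to 8 were above. But the symbol pattern of this list also took in cyp24a1 and other enzymes that do not act on foreign compounds. Its P450 member cyp2k19 had 3.65, 1.16, 4.49 and 0.81, and did not pass without female 4, 8 or 9. At gpib, elovl5 and cyp2k19 the reference signal was well above background on only 2 arrays each. It was lower on the arrays of females 4 and 8, at 37.8 and 19.6 for elovl5, than on those of females 7 and 9, at 615 and 520. For cyp2k19 it was 17.0 and 21.2, against 541 and 513.

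The lowest called gene was si:ch211-133n4.4. Its Cy5 intensity was 658, 505, 373 and 559 in females 4, 7, 8 and 9, against a Cy3 intensity of 6711, 6709, 6414 and 6281 in the reference. The log2 ratio was -3.34, -3.67, -4.13 and -3.42 (mean -3.64 ± 0.35, SD, n = 4, adjusted p = 0.00127). The gene zgc:171699 was also even (mean -2.67, SD 0.34). At lmx1a, a homeobox factor of neurons (mean -2.78, SD 0.50), zc2hc1a (mean -3.06, SD 0.63) and rpf2, a factor of ribosome assembly (mean -2.56, SD 0.61), both females 4 and 8 lay below both females 7 and 9. The other 5 varied more. The sphingomyelin synthase gene sgms1a had -4.97, -1.58, -5.01 and -0.73 (mean -3.07, adjusted p = 0.0379), with means of -2.44, -2.43 and -3.85 without females 4, 8 and 9. The gene efcab11 had -3.71, -2.88, -4.06 and -0.30, with a mean of -3.55 without female 9, and did not pass without female 4, 7 or 8. The annexin anxa13 had -3.80, -0.86, -3.47 and -2.6, with a mean of -3.29 without female 7, and did not pass without female 4 or 9. The tubulin gene tuba1b averaged -2.70, and tubgcp2, of the complex that nucleates microtubules, averaged -2.61. The ratios of tubgcp2 were -3.50, -1.80, -3.61 and -1.54 in females 4, 7, 8 and 9, so that the females of the 2 sessions did not overlap.

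Genes seen in the reference on all 4 arrays and in no female numbered 93 probes, 32 of them standing for named genes. They have no place among the retained genes and only a bound on the fold. The reference was at least 31.2-fold above the females at xylb, a xylulokinase gene, where Cy5 was 31.4, 18.6, 28.3 and 16.6 in females 4, 7, 8 and 9 and Cy3 was 1408, 2696, 1373 and 2486. It was at least 27.1-fold above at mrpl43, of the mitochondrial ribosome, although a second probe of that gene was seen in 3 females. Next were the transcriptional repressor her8a (at least 15.3-fold), the osteoclast phosphatase acp5a (at least 15.0-fold), the collagen chaperone serpinh1b (at least 11.7-fold) and fam131c (at least 7.00-fold). The other probe of her8a was seen in neither channel. At 327 probes the reference was seen alone when female 7 was left out, and at 144 when female 9 was left out.

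**Figure D4:**
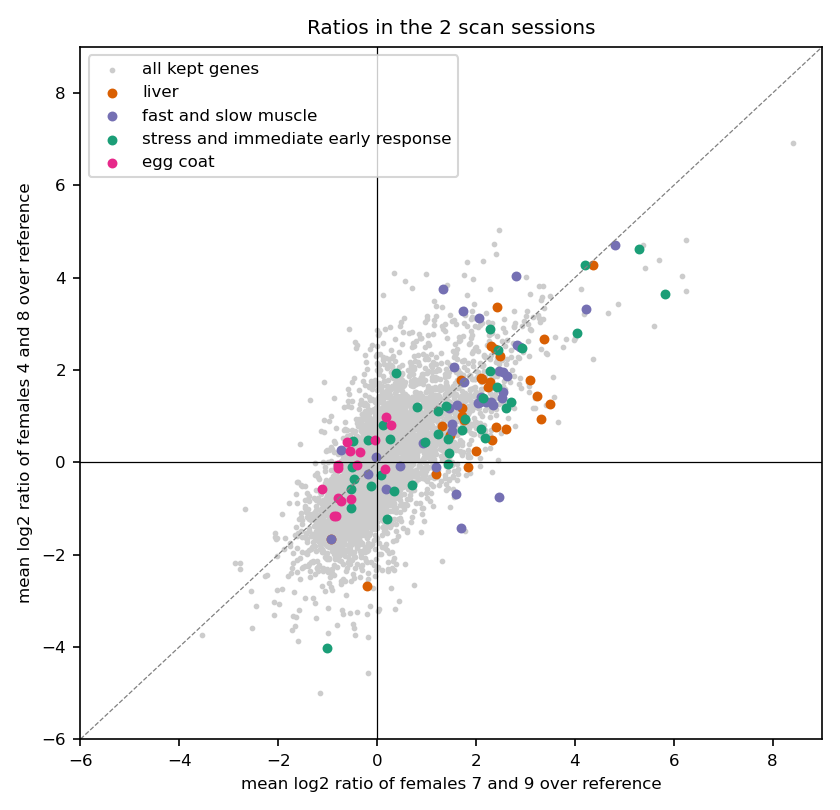
The mean log2 ratio over the reference of females 4 and 8 (vertical) against that of females 7 and 9 (horizontal) for each retained gene, with 4 lists in colour and the dashed line marking equal values. Muscle and liver genes lie mostly to the upper right, and many genes lie away from the dashed line.

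The ratios of the 2 sessions were alike in broad outline, with a Pearson correlation of 0.719 between session means over 6333 genes, which share a common reference and are not independent. In 3563 genes (56.3%) both females of one session lay on the same side of both females of the other. With only 4 values some genes fall this way by chance, and that share is not set beside the count. Session means had opposite signs in 1413 genes. They lay apart by over 2 on the log2 scale, with no overlap of the fish, in 157 genes, 64 higher and 93 lower in females 4 and 8. In 120 of these 157 genes (76.4%) the reference channel differed more between sessions than the female channel did. The same share was not counted over all genes. The reference channel was labelled from the common reference and not from the female on the array. Its ranking of the probes was nonetheless less alike between sessions (Spearman correlation 0.896 to 0.901) than within them (0.997 and 0.999). What changed in it between sessions was not tested. In the female channel each session holds different fish, so session and fish cannot be told apart there.

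**Figure D5:**
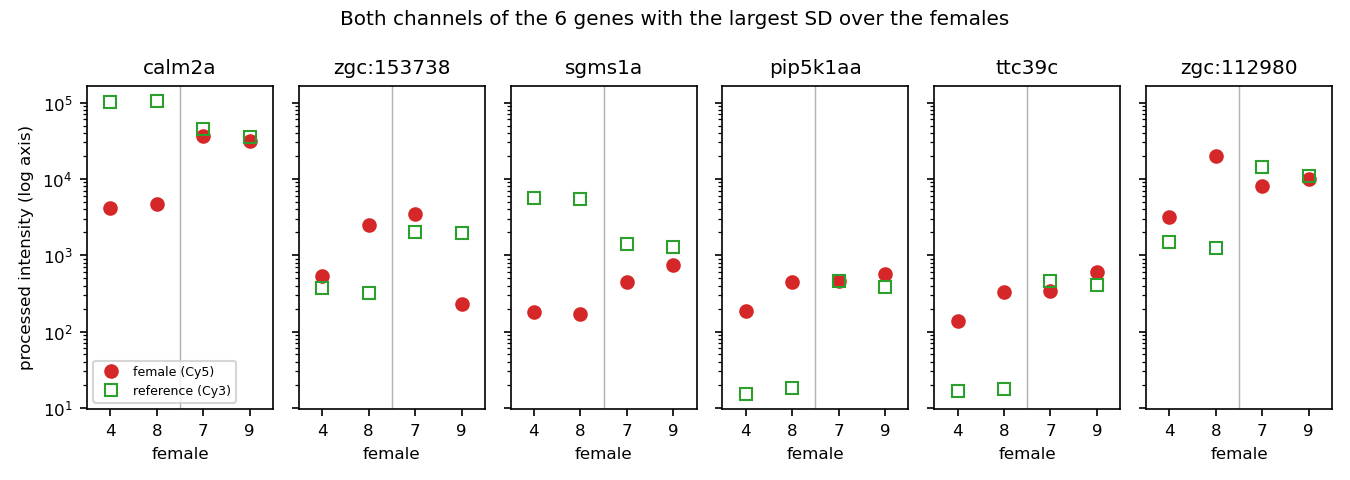
Processed intensity on a log axis of the female channel (filled) and the reference channel (open) for the 6 genes with the largest SD over the females, with females 4 and 8 left of the line and females 7 and 9 right of it. At pip5k1aa and ttc39c the reference lies between 15.0 and 18.1 on the arrays of females 4 and 8 and between 388 and 464 on those of females 7 and 9.

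The SD over the 4 females had a median of 0.40 over genes. The largest was that of the calmodulin gene calm2a, with log2 ratios of -4.60, -0.24, -4.54 and -0.12 and an SD of 2.53. There the female channel was 4198, 36907, 4637 and 31266 in females 4, 7, 8 and 9, against 102311, 45654, 105839 and 35661 in the reference. Both channels thus moved between sessions, in opposite ways. At pip5k1aa, a lipid kinase gene, the female channel was 186, 462, 440 and 567, against 15.0, 460, 18.1 and 388 in the reference. At ttc39c the female channel was 135, 339, 328 and 599, against 16.4, 464, 17.7 and 403 in the reference. In these 2 genes the reference channel moved with the session, and the females did so far less. At zgc:153738 the fish differed within a session, since females 7 and 9 had 0.84 and -3.01. None of these genes was called, apart from sgms1a, which was also among the 6.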

How the data were processed

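RNA of whole adult fish was measured in 4 females against a common reference. Per the labels, the molecule is total RNA, while their labelling protocol describes denatured DNA, so the labelling of the RNA is unstated. The authors used Agilent Feature Extraction 10.5.1.1, per the file headers, and its deposited processed intensity is background-subtracted and dye-normalized within the array. The deposited value table of log10 ratios was equal to the log10 ratio of the scanner files, Cy5 over Cy3, at all 45220 spots of each array and had a median of 0. Its 3 columns of males were not used.

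Control spots (1417) and 43 spots marked as outliers were removed, but not saturated spots. The log2 ratio of the processed intensities was centred on each array's median. For results per gene the retained probe with the highest mean intensity in both channels stood for the gene. Names came from the RefSeq accession, without version, in a gene table of GRCz12tu, which named 16568 of 43603 probes (38.0%). The array was designed on Zv8, so no coordinates are given. Tests were two-sided with limma 3.58.1 in R 4.3.3 (lmFit, eBayes) on the mean ratio against 0, with Benjamini-Hochberg adjustment over all 12848 retained probes and a threshold of 0.05. The number of arrays limits the precision, and a sign-flip test of 4 fish alone could not go below 0.125. Bounds on a fold used each channel after loess and Aquantile normalization, and no bound was tested. An adjusted p given beside a bound is that of the main fit to the measured ratios. The script was tested on simulated data.

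Genes named in the text are the 10 called genes furthest above and the 10 furthest below. The text also names the 2 called members of each list with the largest mean, the 6 genes with the largest SD, the 6 largest bounds in each direction, and further called list members chosen after their values were seen. A gene that this rule names is not reported here. The 28 gene lists, the fish and the rules were chosen with earlier results of these data known. Alternatives were raw signals with normexp (offset 50) and loess, no centring, the deposited value table, other filters on dim or saturated probes, the mean of a gene's probes, the session as a block, each session alone, and each female left out.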

Additional observations from a re-analysis of the deposited data

Results flagged for a closer look

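In 1 of the 73 named genes, and in 0 of the 28 lists, a single female lay far from the other 3. At the muscle ubiquitin ligase gene trim63b, female 8 had a log2 ratio of 2.05 over the reference, below the other females, which had 4.61, 4.27 and 4.18. Its gap to the nearest of them was 0.832 of the whole range, just past the limit of Dixon's test for 4 samples. Chance alone marks about 1 in 20 groups, so 1 among this many is few. A second probe of trim63b had a mean of 3.38 and was also called above the reference. Female 8 also had the lowest median in 8 of the 9 organ lists, and female 4 in the other. Its array was 1 of the 2 dimmer ones, and the part of this in the result was not tested.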

How the results depend on the processing

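No paired analysis was possible because a single group of fish is set against a reference that is no second group of samples. With the session as a random block (correlation 0.326), 1311 probes were called above and 794 below, and 476 and 475 genes. Within females 4 and 8, limma called 0 probes and 0 genes on either side, with 4758 probes at an unadjusted p under 0.05. With 1 female left out, 879 to 2304 probes were called above and 310 to 1252 below, 303 to 913 genes above and 174 to 709 below. The 780 probes at least 2-fold above in all 4 females became 275 with loess, 1660 within females 7 and 9, 1634 within females 4 and 8, and 858 to 1328 with 1 female left out. The 204 probes at least 2-fold below became 65 with loess, 308 when Cy5 had to be seen on 3 arrays, 569 with the filter on Cy3, 1058 with no filter, 1232 within females 4 and 8, and 236 to 340 with 1 female left out. Fewer fish make this count larger by construction. Probes seen in the reference alone numbered 106 to 327 with 1 female left out, and those seen in the females alone 35 to 167. The median SD of 0.46 was 0.177 within females 7 and 9.

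Among named genes, direction turned at zgc:112980 within females 7 and 9 (-0.41) and at zgc:153738 within females 7 and 9 (-1.08) and without female 8 (-0.54). With 1 female left out, zgc:153738 ranged from -0.54 to 1.44. Neither was called, and the cause was not tested. With the session as a block, 12 called genes missed the threshold: cyp2k19, hbba2, rplp1, spata18, dnd1, rad21l1, mrpl9, zp2.5, nanog, cyp17a1, efcab11 and sgms1a. Leaving out female 4, 7, 8 or 9 lost 27, 13, 9 and 14 calls among the 73, with dnd1, rad21l1, mrpl9 and nanog lost each time. With loess, tap2a, cimap1b, hbaa2, cox6b1, rad21l1, zp2.2, zp2.5, ccnb1 and cldng missed the threshold and pip5k1aa passed it. The balance of called members turned in egg coat with loess, in the mitochondrial ribosome with the block, within females 7 and 9, without female 7 and without female 9, in interferon and clock with both filters that use Cy3, and in the cell cycle with the filter on Cy3 alone. The dimmest probes limit the ratios, since their medians lean above 0.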

Other observations

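Some genes held nearly the same ratio in all 4 females in spite of the unequal arrays. The gene trim23, a tripartite motif ligase, had log2 ratios of -1.23, -1.21, -1.21 and -1.19 over the reference in females 4, 7, 8 and 9, an SD of 0.02 (adjusted p = 0.00655). The origin recognition gene orc4 had 1.04, 1.1, 1.16 and 1.15, and the DNA repair gene rad51b had -1.25, -1.12, -1.06 and -1.09. Also even were galnt18a, a glycosyltransferase gene (mean -1.13), the neuronal factor neurod6a (mean -1.16) and znf1156 (mean -1.20). These were the genes of smallest SD among those called and at least 2-fold on one side in all 4 females. For means near that limit, the rule itself leaves out genes of wider spread. They were chosen after their values were seen, and no test was made of their evenness.

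Of the named genes, 22 other retained probes could be set beside the ones reported. Beside genes called above the reference, 13 of 14 other probes were also called above. Beside genes called below (zp2.2, ccnb1, cldng, cyp11a1.1 and cyp17a1), 0 of 7 other probes were called. The last stood beside zgc:112980, which was itself not called, and 0 of the 22 were called on the opposite side. Over all genes with more than 1 retained probe, 9 of 1595 had probes called on opposite sides.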
